A study of Drosophila melanogaster with 2 samples.

Results

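The genes described here are the 7 listed monoamine synthesis and transport genes among the 15902 features of the table, taken by symbol and not by a measured value. *Vmat* encodes the vesicular monoamine transporter. The synthesis genes are *ple* (tyrosine hydroxylase), *Ddc* (dopa decarboxylase), *Tdc2* (the neuronal tyrosine decarboxylase) and *Tbh* (tyramine beta-hydroxylase). *DAT* and *SerT* encode the plasma membrane transporters of dopamine and serotonin. All 7 were found and all 7 had counted transcripts.

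Cells of brains and eye discs of *Drosophila melanogaster* larvae raised for 120 h at 25 °C were profiled in droplets, where transcripts carry unique molecular identifiers (UMIs), so that each captured molecule is counted once. The labels give 1 sample of genotype *mirr*>OreR and 1 of *mirr*>*ND-42* RNAi BL28894, in which the *mirr-Gal4* driver, active in dorsal eye cells, directs RNAi against *ND-42*, a gene for a subunit of mitochondrial Complex I. The label of the control names the driver, whereas the text of the series names only OreR larvae. The tables deposited for both samples hold the same 33552 cells with the same values, so they were counted as 1 library whose genotype is not known. No genotype was compared, no value has a replicate and no test was run. The 95% intervals are exact and cover counting error only.

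Monoamine neurons make their transmitter in the cytoplasm and load it into synaptic vesicles through Vmat, which carries dopamine, serotonin, octopamine and tyramine alike. Dopamine is made from tyrosine by Ple and then Ddc, serotonin from tryptophan by tryptophan hydroxylase and then Ddc, and octopamine from tyrosine by Tdc2 and then Tbh. DAT and SerT take the released amine back into the neuron. In insects *ple* and *Ddc* also serve the tanning of cuticle and the making of melanin, so these genes are not restricted to neurons.

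Neurons were taken as cells with a UMI of *nSyb*, which encodes a synaptic vesicle protein, glia as cells with a UMI of the glial transcription factor gene *repo*, and disc epithelium as cells with a UMI of *eya* or *Dll* and none of *elav*. This gave 11104 neurons, 842 glia and 1880 cells of disc epithelium, at medians of 4924.5, 7779 and 7097.5 UMIs per cell. A neuronal marker was found in a median of 82.4% of neurons over 8 such genes, in 44.1% of glia and in 11.7% of disc epithelium. The 8 glial markers were found in a median of only 13.7% of glia, against 1.97% of neurons, and 197 of the glia (23.4%) also held *nSyb*. The glia gate thus holds neuronal transcripts, and glial values are given with that limit. The 10 epithelial markers were found in a median of 65.8% of disc epithelium and in 18.0% of neurons, and 180 cells of disc epithelium (9.57%) held *nSyb*.

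In pooled levels *Vmat* had the highest ratio of neurons over disc epithelium among the 7 genes, while *Ddc* and *DAT* were no more than 1.19 times as high in neurons as in disc epithelium or glia. *Vmat*, *SerT*, *Tdc2* and *Tbh*, or 4 of the 7 genes, were at least 2-fold higher in neurons than in disc epithelium, where 19.9% of 10577 genes with at least 20 UMIs were. The interval of *Tdc2* reached below 1, and it met the limit of 20 UMIs only through neurons, with 19 UMIs there and 1 in disc epithelium. With a limit of 100 UMIs *Tdc2* was not counted and 3 of the genes were past the fold. None of the 7 was at least 2-fold lower, against 5.87% of those genes. The median ratio was 3.60 over the 7 genes, which is the ratio of *Tdc2*, and 1.09 over all genes tested. Compared with glia, *Vmat* and *Tbh* were at least 2-fold higher, 2 of the 6 genes with at least 20 UMIs, where 15.6% of 10553 genes were. No member was at least 2-fold lower than in glia, against 7.15% of all genes tested.

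**Figure D1:**
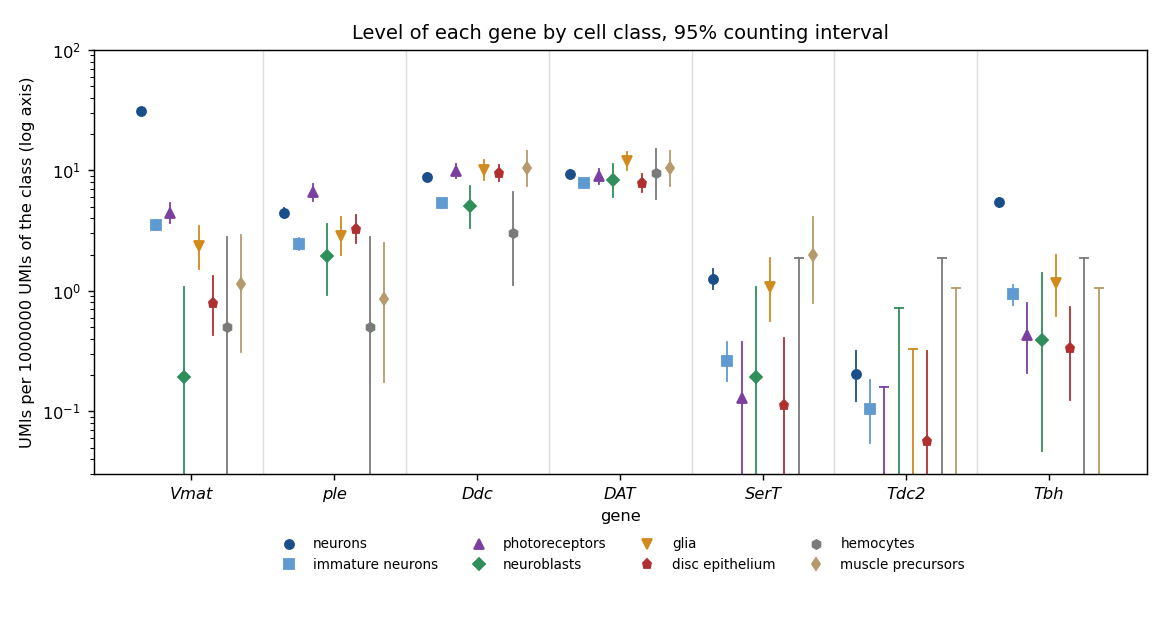
Level of each gene in UMIs per 1000000 UMIs of a cell class (CPM), on a log axis, in 8 classes chosen by marker UMIs. Points are pooled levels, lines are exact 95% counting intervals cut at the lower edge of the axis, and a dash marks the upper bound of a class with no UMI. *Vmat* stood at 30.9 in neurons and at 3.51 or more in no other class but immature neurons and photoreceptors, whereas the points of *DAT* lay between 7.81 and 11.96 in all 8 classes. In photoreceptors 1 cell held 76 of the 103 UMIs of *Vmat*. Without that cell the ratio of photoreceptors over disc epithelium was 1.48 (0.751 to 3.06).

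*Vmat* (FBgn0260964, chromosome arm 2R, 13513132 to 13534251 in BDGP6, minus strand) had 2894 UMIs in 268 of the 11104 neurons (2.41%, 2.14 to 2.72%). It had 26 UMIs in 15 glia (1.78%, 1 to 2.92%) and 14 UMIs in 14 cells of disc epithelium (0.745%, 0.408 to 1.25%). Its level, in UMIs per 1000000 UMIs of the class (CPM), was 30.9 (29.8 to 32.0) in neurons, 2.34 (1.53 to 3.43) in glia and 0.788 (0.431 to 1.32) in disc epithelium. Neurons were the highest class even though they were the shallowest of the 3. In a draw of 3000 UMIs per cell, which left out 3109 neurons, 169 glia and 413 cells of disc epithelium with fewer, the expected shares were 1.63%, 0.804% and 0.142%. The ratio of neurons over disc epithelium was 39.2 (23.3 to 71.8), and that of neurons over glia was 13.2 (8.99 to 20.2).

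Most *Vmat* UMIs came from very few cells. Of 523 cells with the gene, 347 (66.3%) had 1 UMI, and the highest had 330. The 10 highest cells held 54.0% of its 3365 UMIs, and 47 cells with at least 10 UMIs, called *Vmat*-rich below, held 75.7%. The limit of 10 UMIs was chosen after the values were seen. All 47 had a UMI of *nSyb* or *elav*, 42 had *nSyb*, 1 had *repo* and none was in the disc epithelium. That last absence was largely fixed by the gate, which excludes cells with *elav*, found in 45 of the 47. Of all cells, 33.1% had *nSyb*, a further 46.5% had *elav* without *nSyb*, 2.51% were glia and 5.60% were disc epithelium. Without the *Vmat*-rich cells the ratio of neurons over disc epithelium was 6.18 and that over glia was 2.08. *Tbh* then stood above *Vmat*, at 13.6 over disc epithelium. As a mean over cells, which gives each cell the same weight, the ratio over disc epithelium was 5.74 for *Vmat*, 8.45 for *Tbh* and 15.5 for *SerT*, so that *Vmat* did not lead by this measure.

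The dopamine synthesis gene *ple* (FBgn0005626, 3L, 6713356 to 6719525, minus strand) was spread thinly over all classes. It was found in 297 neurons (2.67%), 21 glia (2.49%) and 39 cells of disc epithelium (2.07%). Its level was 4.43 (4.01 to 4.88) CPM in neurons, 2.88 (1.97 to 4.06) in glia and 3.26 (2.48 to 4.22) in disc epithelium, a ratio of neurons over disc epithelium of 1.36 (1.03 to 1.82). Neurons were thus slightly above disc epithelium, by less than the fold of 2. In the draw of 3000 UMIs the shares were 1.09% of neurons and 0.902% of disc epithelium. Its ratio over glia was 1.54 (1.07 to 2.28) and reached 11.6 without cells of more than 20000 UMIs, since the 21 glia with *ple* had a median of 54798 UMIs.

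The highest level of *ple* among the classes was in photoreceptors, the developing light-sensing neurons of the eye disc, taken as cells with *elav* and at least 2 of *gl*, *chp*, *sev*, *ro* and *svp*. There 153 UMIs were found in 89 of 763 cells (11.7%, 9.47 to 14.2%), or 6.62 (5.61 to 7.76) CPM. This was 2.03 times (1.49 to 2.79) the level in disc epithelium and 1.495 times (1.23 to 1.804) that in neurons. Photoreceptors were deep, at a median of 15131 UMIs, and in the draw of 3000 UMIs the share was 1.73%. Photoreceptors and neurons share cells, so these levels are not independent.

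*Ddc* (FBgn0000422, 2L, 19116483 to 19120306, minus strand), which acts in both dopamine and serotonin synthesis, did not set neurons apart. It was found in 500 neurons (4.50%, 4.13 to 4.91%), 69 glia (8.19%, 6.43 to 10.3%) and 135 cells of disc epithelium (7.18%, 6.06 to 8.44%). The level was 8.89 (8.29 to 9.51) CPM in neurons, 10.2 (8.38 to 12.2) in glia and 9.57 (8.19 to 11.1) in disc epithelium. The intervals of these pooled levels overlap. As a mean over cells, however, neurons were lower, at 8.16 CPM against 16.9 in glia and 15.6 in disc epithelium, and the ratio over disc epithelium was 0.523 and that over glia 0.482. Without cells of more than 20000 UMIs the ratios were 0.569 and 0.536. The ratio was 0.929 (0.787 to 1.10) over disc epithelium and 0.875 (0.718 to 1.07) over glia, and in the draw of 3000 UMIs the shares were 1.72%, 2.17% and 2.68%. Of the further classes, each taken by at least 2 of its marker genes, the 291 muscle precursors stood at 10.5, the photoreceptors at 9.91, the 476 neuroblasts at 5.04 and the 121 hemocytes at 3.02 CPM. The share of neurons with *Ddc* did not exceed that of disc epithelium and is therefore not read as expression particular to neurons. Transcripts made by these classes cannot be told apart from free RNA in the droplets.

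The dopamine transporter gene *DAT* (FBgn0034136, 2R, 16558567 to 16565238, minus strand) was as even. Its 882 UMIs in 537 neurons (4.84%) gave 9.41 (8.80 to 10.1) CPM, against 11.96 (10.02 to 14.18) in glia and 7.88 (6.63 to 9.30) in disc epithelium. The ratio was 1.19 (0.998 to 1.44) over disc epithelium and 0.787 (0.655 to 0.951) over glia. Immature neurons, a name used here only for cells with *elav* and no UMI of *nSyb*, stood at 7.81. Neuroblasts stood at 8.34, hemocytes at 9.58 and muscle precursors at 10.5. In the draw of 3000 UMIs the share was 2.08% of neurons, 2.99% of glia and 2.36% of disc epithelium. No class was free of *DAT*, and its share over all neurons, like that of *Ddc*, did not exceed that of disc epithelium. It was higher in neurons with *Vmat* or *ple*, as given with the pairs of genes.

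The serotonin transporter gene *SerT* (FBgn0010414, 2R, 24404595 to 24411074, minus strand) was rare and uneven. Its 159 UMIs were found in 57 cells, of which 4 with at least 10 UMIs held 50.3% of them, and the highest cell had 30. In neurons it had 118 UMIs in 29 cells (0.261%), or 1.26 (1.04 to 1.51) CPM. In glia 12 UMIs in 6 cells (0.713%) gave 1.08 (0.558 to 1.89) CPM, and in disc epithelium 2 UMIs gave 0.113 (0.0136 to 0.407). The ratio of neurons was 11.2 (3.03 to 93.4) over disc epithelium and 1.17 (0.643 to 2.32) over glia. Without the *Vmat*-rich cells these ratios were 2.76 and 0.288, so that the level of *SerT* in neurons rests on those cells.

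The octopamine genes *Tdc2* and *Tbh* differed in how often they were found. *Tdc2* (FBgn0050446, 2R, 6684745 to 6689974, minus strand) had 35 UMIs in 26 cells, of which 10 were neurons with 19 UMIs, or 0.203 (0.122 to 0.317) CPM. It had 1 UMI in disc epithelium, which gives a ratio of 3.60 (0.573 to 149.6), and none in glia, where the limit set by 3 counts is 0.270 CPM. At this depth no difference of *Tdc2* between the 3 classes was detectable. *Tbh* (FBgn0010329, X, 7995697 to 8027394, plus strand) had 508 UMIs in 345 neurons (3.11%, 2.79 to 3.45%), 13 in 11 glia (1.31%) and 6 in 6 cells of disc epithelium (0.319%, 0.117 to 0.693%). Its level was 5.42 (4.96 to 5.91) CPM in neurons, 1.17 (0.623 to 1.999) in glia and 0.338 (0.124 to 0.735) in disc epithelium. The ratio was 16.1 (7.32 to 43.9) over disc epithelium and 4.64 (2.69 to 8.77) over glia. Unlike *Vmat*, *Tbh* was spread over many neurons, since its 10 highest cells held 16.8% of its UMIs and 83.2% of the cells with it had 1 UMI.

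Within the neuronal cells, neurons with *nSyb* were compared with immature neurons. The share of all genes past the fold was not determined for these classes. Immature neurons had a median of 4065 UMIs per cell against 4924.5, so the class may hold neurons whose *nSyb* was missed. Their maturity was not tested. The ratio was 8.80 (7.93 to 9.79) for *Vmat*, and 1.88 (1.62 to 2.19) without the *Vmat*-rich cells. For *Tbh* it was 5.80 (4.70 to 7.22), and 4.93 (3.98 to 6.15) without them. *SerT* stood at 4.81 (3.20 to 7.44), and at 1.27 (0.731 to 2.22) without them. *ple* stood at 1.81 (1.55 to 2.12), *DAT* at a ratio of 1.205 (1.096 to 1.324) and *Ddc* at 1.67 (1.504 to 1.859). *Tdc2* stood at 1.94 (0.892 to 4.37), and at 0.614 (0.189 to 1.77) without the *Vmat*-rich cells, so that both intervals held 1. The ratio of *Tbh* therefore rested little on the *Vmat*-rich cells, whereas most of those of *Vmat* and *SerT* did.

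Neurons with a Hox gene (*Antp*, *Ubx*, *abd-A* or *Abd-B*), which mark the ventral nerve cord, were compared with the other neurons. In these 2591 cells *Vmat* was 1.66 times (1.54 to 1.79) the level of the other 8513 neurons, but 0.352 times (0.271 to 0.451) without the *Vmat*-rich cells. *SerT* stood at 1.81 (1.24 to 2.64) with them and 0.457 (0.152 to 1.15) without, *Tdc2* at 3.00 (1.09 to 8.996) and 0.350 (0.0074 to 3.13), and *Tbh* at 1.31 (1.09 to 1.56) and 0.866 (0.703 to 1.06). *Ddc* went the other way, from 0.996 (0.861 to 1.15) to 1.44 (1.23 to 1.68), as did *ple*, from 1.12 (0.914 to 1.37) to 1.26 (1.02 to 1.55). The direction of the first 4 ratios was therefore set by a few cells, and without them the intervals of *SerT*, *Tdc2* and *Tbh* held 1. The Hox-bearing neurons were deeper, at a median of 6891 UMIs per cell against 4462.

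**Figure D2:**
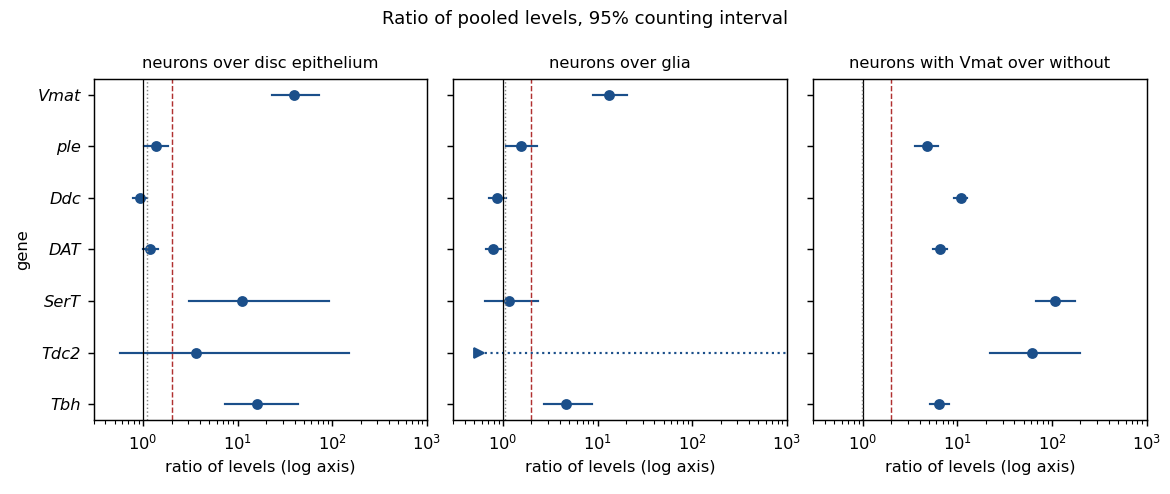
Ratio of pooled levels of each gene, on a log axis, in neurons over disc epithelium, neurons over glia, and neurons with *Vmat* over neurons without. Points are ratios and lines exact 95% counting intervals. The solid line is 1, the dashed line 2 and the dotted line the median of all genes tested, and for *Tdc2* over glia, where glia had no UMI, the arrowhead marks the lower bound of 0.554. *Ddc* and *DAT* lay near 1 over disc epithelium and glia but at 10.9 and 6.59 in neurons with *Vmat*.

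The number of cells was then determined in which *Vmat* came with a synthesis gene or a plasma membrane transporter. Of the 268 neurons with *Vmat*, 90 (33.6%, 28.0 to 39.6%) had a UMI of at least 1 of the other 6 genes. Of the 10836 neurons without *Vmat*, 1388 (12.8%, 12.2 to 13.4%) had one. The neurons with *Vmat* were deeper, at a median of 5922.5 UMIs against 4906, and in a draw of 3000 UMIs the expected shares were 27.3% and 6.15%. In glia 6 of 15 cells with *Vmat* (40%, 16.3 to 67.7%) had another of the genes, against 17.4% of those without, and in disc epithelium 1 of 14 (7.14%, 0.181 to 33.9%) against 15.4% of its cells without *Vmat*. Over all cells the number was 132 of 523 (25.2%), against 10.3% of cells without *Vmat*.

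The share was higher in neurons with more *Vmat* UMIs. It was 33 of 151 neurons (21.9%) with 1 UMI of *Vmat*, 27 of 75 (36.0%) with 2 to 9 and 30 of 42 (71.4%, 55.4 to 84.3%) with 10 or more. Median depth was 5138, 5755 and 8769 UMIs in these groups, and its part in the share was not tested. Thus 12 *Vmat*-rich neurons had none of the other genes, and 10 when *Trh*, the tryptophan hydroxylase gene (FBgn0035187, 3L, 1190384 to 1193173, minus strand), was counted with them.

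**Figure D3:**
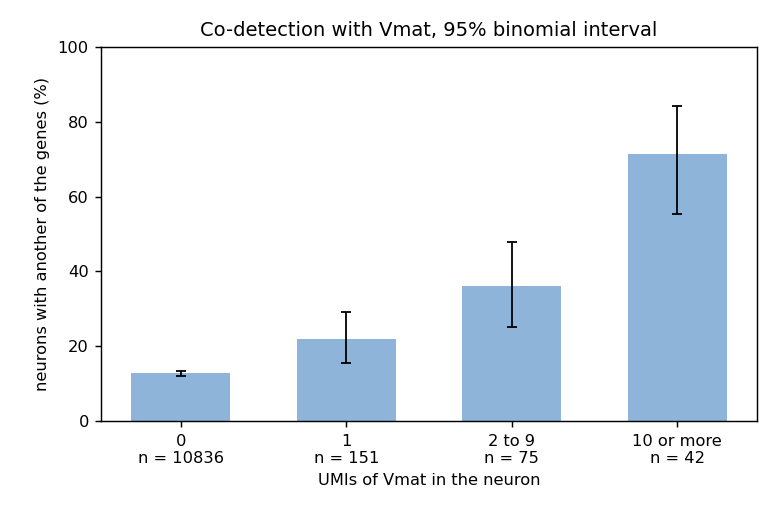
Percent of neurons with a UMI of *ple*, *Ddc*, *DAT*, *SerT*, *Tdc2* or *Tbh*, by the number of *Vmat* UMIs in the neuron. Bars start at 0, lines are exact 95% binomial intervals and n is the number of neurons. The bars stand at 12.8%, 21.9%, 36.0% and 71.4%.

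Each of the other genes was higher in neurons with *Vmat* than in those without. All 5 with at least 20 UMIs were past the fold of 2, where 4.65% of 10398 genes were, and none was at least 2-fold lower, against 8.29%. The ratio was 107 (67.9 to 173) for *SerT*, 10.9 (9.29 to 12.7) for *Ddc*, 6.59 (5.53 to 7.82) for *DAT*, 6.42 (5.07 to 8.06) for *Tbh* and 4.75 (3.54 to 6.27) for *ple*. *Tdc2*, with 13 UMIs in neurons with *Vmat* and 6 in the others, stood at 62.1 (22.0 to 199). Of the UMIs in neurons with *Vmat*, the *Vmat*-rich neurons held most for each of these genes except *ple*, with 28 of 59. In the *Vmat*-rich neurons *Ddc* stood at 389 (335 to 448) CPM. It stood at 14.6 (10.4 to 19.9) in the other 226 neurons with *Vmat* and at 6.67 (6.15 to 7.22) in neurons without it. *DAT* stood at 194, 26.2 and 7.92 in the same order, *SerT* at 182, 1.497 and 0.276, and *Tbh* at 162, 5.24 and 4.58. *ple* stood at 57.3 (38.1 to 82.8), 11.6 (7.88 to 16.5) and 3.93 (3.53 to 4.36). Single cells weighed heavily in these values. For *Ddc* 2 neurons gave 159 of the 190 UMIs of the *Vmat*-rich neurons, and without them the ratio of neurons with *Vmat* over those without was 3.38 (2.60 to 4.34). For *Tbh* 3 neurons gave 73 of 79 UMIs, and without them the ratio was 1.40 (0.848 to 2.196), no longer past the fold of 2. Without the 3 neurons highest in each gene, the ratios were 30.7 (17.1 to 55.5) for *SerT*, 3.87 (3.09 to 4.79) for *DAT*, 3.16 (2.21 to 4.40) for *ple* and 4.86 (0.106 to 40.1) for *Tdc2*, an alternative chosen after the data were seen.

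Among the 21 pairs of the 7 genes, 17 had a higher share of the second gene in neurons with the first, and in 12 the exact intervals of both shares did not overlap. In the draw of 3000 UMIs only 12 of the 21 pairs had the higher share. Neurons with *ple* or *Ddc* were deeper, at medians of 9471 and 13319 UMIs against 4876 and 4803.5 in those without. The count over pairs of other genes was not determined, so nothing is read from these counts. *SerT* was found in 11 of 268 neurons with *Vmat* (4.10%, 2.07 to 7.22%) and in 0.166% of those without, so that 37.9% of the neurons with *SerT* had *Vmat*. *DAT* was found in 61 of 297 neurons with *ple* (20.5%, 16.1 to 25.6%) and in 4.41% of those without, or 11.8% and 1.97% in the draw. *ple* and *Ddc*, the enzymes of dopamine synthesis, were found together in 46 neurons, 15.5% against 4.20%, but in the draw the shares came down to 3.61% and 1.70%. These 46 neurons had a median of 50285.5 UMIs, far above that of all neurons. *Tdc2* was found in no neuron with *ple*, *Ddc*, *DAT* or *SerT*, which at 10 neurons with *Tdc2* says little, and over all cells it was found with *ple* in 2. Of its 10 neurons 3 had *Tbh* (30.0%, 6.67 to 65.2%) against 3.08% of the other neurons.

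**Figure D4:**
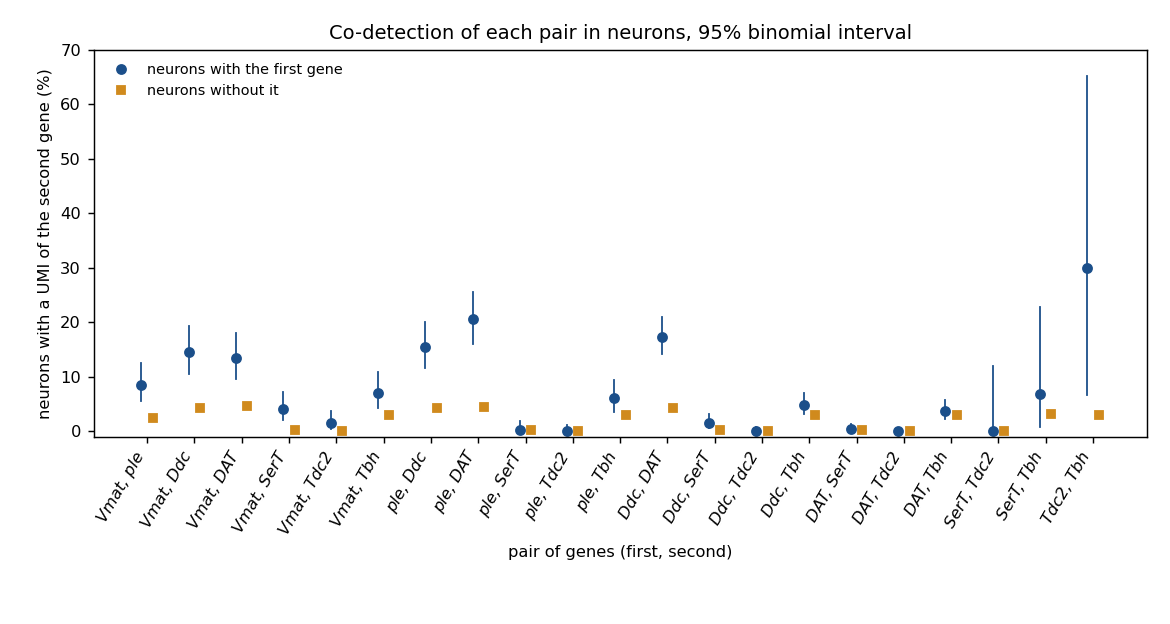
Percent of neurons with a UMI of the second gene of each of the 21 pairs, in neurons with the first gene (circles) and without it (squares). Lines are exact 95% binomial intervals. *ple* with *DAT* stood at 20.5% against 4.41%, and the 4 pairs of *Tdc2* with *ple*, *Ddc*, *DAT* and *SerT* stood at 0 in neurons with the first gene.

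The complete sets of a pathway were found in very few cells. *SerT* and *Trh* were found together in 10 cells, all of which had *Vmat*, and 7 of them also had *Ddc*. *Tdc2* and *Tbh* were found together in 3 cells, all of which had *Vmat*. *ple* and *DAT* were found together in 100 cells, of which only 21 had *Vmat*. These 100 cells had a median of 35648 UMIs, and 35 of them were photoreceptors. *ple*, *Ddc* and *DAT* were found together in 31 cells at a median of 92577 UMIs, of which 6 had *Vmat*.

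The 47 *Vmat*-rich cells were described by the transmitter genes with at least 2 UMIs, a rule chosen after the values were seen. By this rule 12 cells had *ple* or *DAT*, 11 had *SerT* or *Trh*, 4 had *Tdc2* or *Tbh*, 1 had genes of the serotonin and octopamine sets, 1 had *Ddc* alone and 18 had none. The exception with genes of both sets had 204 UMIs of *Vmat*, 36 of *Tbh* and 1 of *Tdc2* beside 2 of *Trh*. In the 12 cells with *ple* or *DAT* no UMI of *SerT*, *Trh*, *Tdc2* or *Tbh* was found. In the 11 cells with *SerT* or *Trh* no UMI of *ple*, *DAT* or *Tdc2* was found and *Tbh* had 1 UMI in each of 2 cells. In the 4 cells with *Tdc2* or *Tbh* no UMI of *ple*, *Ddc*, *DAT*, *SerT* or *Trh* was found. The rule placed cells with at least 2 UMIs of a gene from each of 2 sets apart. A set could thus hold at most 1 UMI per cell of a gene of another set. Except for *Ddc*, which defines no set, this separation was therefore largely fixed by the rule.

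**Figure D5:**
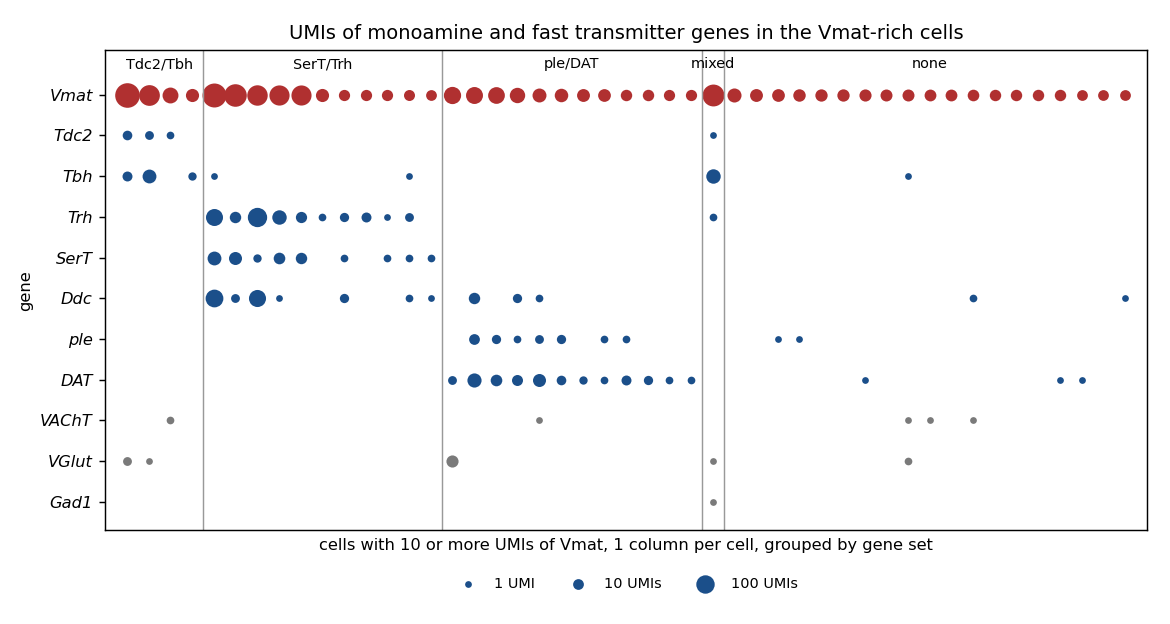
UMIs of *Vmat*, of the other 6 genes, of *Trh* and of 3 fast transmitter genes in each of the 47 cells with at least 10 UMIs of *Vmat*, 1 column per cell, sorted by *Vmat* within a gene set. The area of a point grows with the square root of the UMI count, and no point means no UMI. The sets hold 4, 11, 12 and 1 cells, and the column block at the right holds the cells with none or with *Ddc* alone.

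The cell with the most *Vmat* was one of the octopamine cells. In these 4 cells *Vmat* UMIs ran from 24 to 330 with a median of 109. The cell with 330 UMIs of *Vmat* among 14478 UMIs had 6 of *Tdc2* and 7 of *Tbh*. Another, with 164 of *Vmat* among 20302, had 4 of *Tdc2* and 30 of *Tbh*. Both genes of octopamine synthesis were present beside *Vmat* in these cells, while the other cells of the set had only one of them.

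The 11 serotonin cells had between 10 and 297 UMIs of *Vmat*, with a median of 24. The cell with 297 UMIs among 29798 had 86 of *Ddc*, 30 of *SerT* and 72 of *Trh*, and the cell with 154 among 27829 had 73, 3 and 122. Another, with 231 among 47034, had 4 of *Ddc*, 23 of *SerT* and 13 of *Trh*. Over the 11 cells *Trh* was found in 10, *SerT* in 9 and *Ddc* in 7. *Pu*, which encodes the first enzyme of the synthesis of the cofactor tetrahydrobiopterin, had 51 and 34 UMIs in the first and second of these cells.

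The 12 dopamine cells had between 12 and 76 UMIs of *Vmat*, with a median of 24.5. *DAT* was found in all 12, with 2 to 33 UMIs, *ple* in 7 and *Ddc* in 3. The cells without *ple* entered the set through *DAT* alone, a gene found in every class. The clearest of them, with 3993 UMIs in all, had 71 of *Vmat*, 10 of *ple*, 13 of *Ddc* and 33 of *DAT*. The cell with the most *Vmat*, 76 UMIs, had 4 of *DAT*, no *ple* or *Ddc* and 17 of *VGlut*, the vesicular transporter gene of glutamate neurons. The absence of a gene from a single cell is limited by depth, since the 12 cells had between 1883 and 39198 UMIs.

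Genes of fast transmission were found in some of the *Vmat*-rich cells. *VAChT*, the vesicular transporter gene of cholinergic neurons, was found in 1 of the 12 dopamine cells, none of the 11 serotonin cells and 1 of the 4 octopamine cells. *VGlut* was found in 1, none and 2 cells of these sets, at 137.6 CPM in the dopamine and 78.2 CPM in the octopamine cells against 67.1 in all neurons, and *VGAT*, the vesicular transporter gene of GABA neurons, in none, 3 and 1. *Gad1*, which encodes the enzyme of GABA synthesis, was found in none of these 3 sets. Over all neurons with *Vmat*, *VAChT* was found in 26.9% (21.6 to 32.6%) against 36.3% without *Vmat*, and *VGlut* in 28.7% (23.4 to 34.5%) against 18.1%. The level of *VAChT* was 0.471 times (0.395 to 0.558) and that of *Gad1* 0.655 times (0.478 to 0.877) that in neurons without *Vmat*, while *VGlut* stood at 1.18 (1.04 to 1.34).

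Hox genes were found in 5 of the 11 serotonin cells, 2 of the 4 octopamine cells and 1 of the 12 dopamine cells. The cell with the most *Vmat* had 14 UMIs of *abd-A*, 10 of *Abd-B* and 2 of *Ubx*. *vvl*, a POU-domain transcription factor gene, had 107 UMIs in 6 of the serotonin cells and 2 UMIs in 1 of the dopamine cells. *Proc*, which encodes the neuropeptide proctolin, had 107 UMIs in 5 of the serotonin cells, of which 64 came from 1 cell. These sets were formed from the values, so the numbers describe single cells and are not a comparison of cell types.

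The receptors of the monoamines were mostly higher in neurons. All 17 were at least 2-fold higher in neurons than in disc epithelium, with a median ratio of 12.7, and 15 of the 17 were so over glia, with a median of 5.47, against 19.9% and 15.6% of all genes tested. *Dop1R2*, a dopamine receptor gene, had the highest ratio over disc epithelium at 34.7 (17.6 to 80.5), followed by *5-HT7*, a serotonin receptor gene, at 22.0 (8.55 to 81.2). *Octalpha2R* stood at 1.63 (1.44 to 1.85) and *5-HT2B* at 1.70 (0.992 to 3.17) over glia. In neurons with *Vmat* 2 of 17 receptors were at least 2-fold higher, where 4.65% of all genes tested were, at a median ratio of 1.12 against 0.989. They were *Octbeta2R* at 2.35 (1.87 to 2.91) and *5-HT2A* at 2.02 (1.27 to 3.05).

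In the *Vmat*-rich neurons, however, *Dop2R* stood at 153.5 CPM (121 to 192), against 36.7 in other neurons with *Vmat* and 37.0 in those without. *5-HT1A* stood at 123 (93.7 to 158), against 29.6 and 26.7. Both are receptors for which a role as autoreceptor on monoamine neurons has been described in mammals for their orthologs. *Dop2R* was found in 10 of the 12 dopamine cells and 6 of the 11 serotonin cells, and *5-HT1A* in 10 of the 11 serotonin cells and 3 of the 12 dopamine cells. In the 19 *Vmat*-rich cells with *Ddc* alone or no set, *Dop2R* was found in 9 at 152.7 CPM and *5-HT1A* in 5 at 172.6 CPM, so that both were also found outside the sets. Both genes were singled out after their values were seen.

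Of the other synthesis and cofactor genes only *Trh* was past the fold of 2, among 9 with at least 20 UMIs, at 25.5 (8.67 to 124) over disc epithelium and 23.96 (6.59 to 198.5) over glia. The median ratio of this list was 0.809 over disc epithelium and 1.03 over glia, near that of all genes tested, 1.09 and 1.04. In neurons with *Vmat* 3 of the 9 were at least 2-fold higher, where 4.65% of all genes tested were. They were *Trh* at 76.6 (61.3 to 96.2), *Pu* at 11.0 (8.89 to 13.5) and *Tdc1*, the non-neuronal tyrosine decarboxylase gene, at 2.39 (0.625 to 6.52) from 4 UMIs. Without the 3 neurons highest in *Trh*, an alternative chosen after the data were seen, its ratio was 17.1 (12.4 to 23.5). For *Pu*, 2 cells gave 51 and 34 of the 128 UMIs in neurons with *Vmat*. *Pcd* and *Sptr*, which also act in cofactor synthesis, stood at 1.39 (1.25 to 1.54) and 1.92 (1.57 to 2.31). *Trh* had 404 UMIs in 74 neurons, or 4.31 (3.90 to 4.75) CPM, 2 UMIs in glia and 3 in disc epithelium.

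The genes of inactivation and recycling were divided. *AANAT1*, which encodes an acetyltransferase of monoamines, was 14.1 times (10.4 to 19.7) higher in neurons than in disc epithelium and 4.77 times (3.797 to 6.067) higher than in glia. In contrast *e*, which conjugates amines to beta-alanine and is known for its role in glia, was lower in neurons than in glia at 0.166 (0.0966 to 0.289), and *AANATL2* stood at 0.274 (0.202 to 0.377). In all, 2 of the 4 genes tested were at least 2-fold higher and 2 at least 2-fold lower than in glia, and in neurons with *Vmat* none was at least 2-fold higher. There *e* had no UMI, a ratio of 0 with an interval up to 3.19, so that no difference was detectable. All 6 tested genes of the list of other vesicular transporters and fast transmitter genes were at least 2-fold higher in neurons than in either class. In neurons with *Vmat* none of them was at least 2-fold higher, with *VGlut* the highest at 1.18 (1.04 to 1.34). There 2 were at least 2-fold lower, *VAChT* and *prt*, a vesicular transporter gene related to *Vmat*, at 0.166 (0.0341 to 0.488) from 3 UMIs.

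Of the 8 transcription factor genes known for monoamine neurons, 5 were at least 2-fold higher in neurons than in disc epithelium, where 19.9% of all genes were, and 5 than in glia, where 15.6% were. In neurons with *Vmat* none was at least 2-fold higher, where 4.65% of all genes were, too few to read anything from 8 genes, and *hkb* was lower at 0.253 (0.0304 to 0.922) from 2 UMIs. *tup* stood at 0.849 (0.697 to 1.03), *Lim3* at 1.17 (0.956 to 1.41) and *zfh2* at 1.42 (1.25 to 1.60).

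The genes most like each member were taken as those with the highest ratio of pooled level in neurons with the member over neurons without, among genes found in at least 10% of the neurons with the member. For *Vmat* these were *Start1* at 3.44, *CG2269* at 3.35, *Oatp74D* at 2.99, *Fer2* at 2.75 and *jus* at 2.70, over 268 neurons. *Trh* and *Pu* had higher ratios but were found in 5.97% and 9.33% of these neurons, under that limit. In these neurons a single cell gave 77.0% of the *Start1* UMIs and 53.9% of those of *Oatp74D*, but only 8.45% of those of *Fer2*, a transcription factor gene known for dopamine neurons. For *SerT*, over 29 neurons, *Trh* led at 493, followed by *Pu* at 58.2, *nord* at 34.8, *Proc* at 18.9 and *CG45002* at 12.1, with 45.4% to 70.3% of their UMIs from 1 cell. For *Tdc2*, over 10 neurons, they were *CG2269* at 29.9, *IA-2* at 13.3, *vri* at 8.31, *CG31324* at 6.92 and *Pal2* at 6.92. Of the UMIs of each in these neurons, 36.2% to 63.0% came from 1 cell. IA-2 is a membrane protein of dense core vesicles.

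For *Tbh*, over 345 neurons, the leading genes were *ITP* at 14.4, *CG4577* at 5.12, *jus* at 4.96, *Arc1* at 4.77 and *IA-2* at 4.07. *ITP*, which encodes ion transport peptide, owed 98.8% of its UMIs in these neurons to 1 cell, and *Arc1* owed 40.8% to 1 cell. *IA-2* was found in 222 of the 345 neurons. For *ple* they were *E(spl)m2-BFM* at 4.37, *sev* at 4.29, *Snmp2* at 4.20, *spirit* at 4.16 and *lz* at 4.04, of which *sev*, a receptor tyrosine kinase gene, and *lz*, a Runx transcription factor gene, are known for the differentiation of photoreceptors. *sev* was also used to choose the photoreceptors above.

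For *Ddc* they were *sona* at 11.1, *GV1* at 4.91, *CG32091* at 4.75, *CG9691* at 4.61 and *Cda4* at 4.59. In neurons with *Ddc* 71.7% of the *sona* UMIs came from 1 cell. For *DAT* they were *Cda4* at 4.47, *asRNA:CR45143* at 3.91, *CG14984* at 3.89, *slow* at 3.87 and *Qsox2* at 3.74. *Cda4*, which encodes a chitin deacetylase, thus stood in both lists, and the leading genes of *Ddc* and *DAT* held no neuronal gene of the lists above. The neurons with *Ddc* and *DAT* had medians of 13319 and 12208 UMIs, against 4803.5 and 4800 in neurons without, and the part of depth in these lists was not tested.

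The share of neurons with a gene was higher at greater depth for the 5 genes given here, and levels differed with depth as well. Neurons were divided by depth into 4 groups of about the same size. From the shallowest, with a median of 1987.5 UMIs, to the deepest, with 14330.5, the share with *Ddc* went from 1.44% to 10.9% and that with *DAT* from 1.26% to 11.8%. The levels were 9.66 and 9.82 CPM for *Ddc* and 7.96 and 9.32 for *DAT* in these groups, but *Ddc* was at 6.16 in the third and *DAT* at 12.5 in the second. The share with *Vmat* went only from 1.76% to 3.35%, and its level was 27.7 and 34.5 CPM. *Tbh* and *ple* were lower in level in deeper neurons, from 8.91 to 3.97 CPM and from 7.20 to 3.99 CPM, while their shares went from 1.51% to 4.47% and from 1.22% to 5.51%. Of these 5 genes *Vmat* had the smallest step in share.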

How the data were processed

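The authors dissociated brains and eye discs with trypsin, made 10x single-cell libraries, mapped reads to BDGP6 with Cell Ranger and counted UMIs. Seurat is also named in the submitters' processing notes. The values deposited by the authors are on a natural log scale, with 1 added to each cell's UMIs after scaling its total to 10000, as read from the numbers. After exponentiation, dividing by the smallest positive entry of the same cell gave whole numbers within 0.01 for 100% of entries, 243468253 UMIs in all. Cells held 500 to 333220 UMIs, with a median of 4092. No cell was removed and no doublet caller was run. Cells of more than 20000 UMIs, or of more than 1 class, were left out only in alternatives.

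Classes were set by marker UMIs, and a cell may belong to several. A level is the pooled UMIs per 1000000 UMIs of a class (CPM) with an exact Poisson interval, a share has an exact Clopper-Pearson interval, and a ratio has an exact conditional binomial interval. The expected share in a draw of 3000 UMIs per cell was computed from the hypergeometric distribution. Genes counted as past the fold had a ratio of at least 2 or at most 0.5 and at least 20 UMIs in both groups together, and transposable elements were not counted. Cells are not replicates, so no p-value was computed. The scripts were tested on simulated data and run in Python 3.11.15 with scipy 1.17.1. Chromosome positions are those of the Ensembl annotation of BDGP6. Genes on the other strand overlap *Vmat* (3 genes), *Ddc*, *Tdc2*, *Tbh* and *Trh* (1 each), and whether counting used the strand is not given in the sources used here. The symbol *Trh* of the table was taken as tryptophan hydroxylase, since the table also holds *trh*.

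Named genes were the 7 members, every gene of the lists, and for each member the 5 genes with the highest ratio in neurons with the member over those without. These had at least 20 UMIs in, and were found in at least 10% and at least 5 of, the neurons with the member, without members and transposable elements. The members, lists and gates were chosen with earlier results of these data known. The *Vmat*-rich cells, the transmitter sets and the alternatives built on them were chosen after the data were seen.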

Additional observations from a re-analysis of the deposited data

How the results depend on the processing

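With 1 library, nothing here has a replicate, and a set of at most 47 cells carries most of the *Vmat* result. No paired analysis was possible because the 2 tables are the same library. The share of neurons with *Vmat* that had another of the genes, 33.6%, was 40.2% with at least 2 UMIs of *nSyb*, 27.3% in a draw of 3000 UMIs per cell, 26.5% without *Ddc* and, in an alternative added after the data were seen, 71.4% with at least 10 UMIs of *Vmat*. The other 26 values of the summary results stayed within their interval or within 1.5 times the count. Of the ratios of single genes to disc epithelium or glia, 52 stayed within the counting interval and the other 26 moved beyond it. For *DAT* over glia, whose interval lies below 1, the ratio was 0.787 pooled and 1.07 as a mean over cells. Another 6 values lay on the other side of 1 for ratios whose interval holds 1, with no direction called. These were *Ddc* over disc epithelium (1.23 and 1.05) and over glia (1.32), and *SerT* over glia (0.860, 0.838 and 0.288). The ratio of *Vmat* over disc epithelium was 131 with at least 2 UMIs of the class markers, and that over glia 61.6, or 41.5 with cells of only 1 class. That of *Ddc* over disc epithelium was 0.523 as a mean over cells and 0.569 without cells of more than 20000 UMIs. The count of all genes at least 2-fold higher in neurons was 2100 over disc epithelium and 4033 with no filter on UMIs, and 1646 and 3601 over glia. The cause was not tested. Counts of 1 to 3 UMIs, as for *SerT* and *Tdc2* in disc epithelium, limit what can be said of those ratios.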

Other observations

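Of the 523 cells with *Vmat*, 238 held none of the markers of the 3 classes, and 41 of these (17.2%, 12.7 to 22.6%) had another of the genes, against 8.42% of the 19946 such cells without *Vmat*. Immature neurons with *Vmat* had another of the genes in 40 of 204 cells (19.6%, 14.4 to 25.7%) against 9.29%. In photoreceptors it was 13 of 19 cells (68.4%, 43.5 to 87.4%) against 33.5%, at medians of 26689 and 14896 UMIs. *Hdc*, which encodes the enzyme of histamine synthesis, had 10 UMIs in all neurons, of which 4 were in neurons with *Vmat*, a ratio of 19.1 (3.96 to 80.6). The gene was under the limit of 20 UMIs and was found in only 0.746% of neurons with *Vmat*, so nothing is read from this ratio.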
